A study of Mus musculus with 6 samples.

Results

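The core loop of the circadian clock was followed in mouse adult fibroblasts (MAFs) through 10 genes, *Arntl* (the symbol under which *Bmal1* is listed), *Clock*, *Npas2*, *Per1*, *Per2*, *Per3*, *Cry1*, *Cry2*, *Nr1d1* and *Nr1d2*. They were taken by gene name from a table of counts for 43346 genes, each name matched a single row, and all 10 were among the 17589 genes with enough counts for a test. The RNA came from primary cells of the ears of female C57BL6/J mice, kept at 3% oxygen, in 3 control samples that were sham irradiated and 3 senescent samples made so by 20 Gy of X-ray irradiation and further culture. All 6 samples were exposed to 100 nM dexamethasone, a glucocorticoid that sets the clocks of cultured cells to a common phase, for 2 hours and were collected 12 hours later. The values describe this time point alone, so a change in level and a shift of the phase of the rhythm cannot be told apart.

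The clock of mammalian cells is a transcriptional feedback loop. BMAL1 pairs with CLOCK, or with its paralog NPAS2, and this dimer binds E-box elements and drives the *Per*, *Cry* and *Nr1d* genes. PER and CRY proteins return to the nucleus and repress the dimer, while the nuclear receptors REV-ERBα and REV-ERBβ, encoded by *Nr1d1* and *Nr1d2*, repress *Bmal1* and other genes through ROR response elements, in competition with the RORs. Fibroblasts carry such a clock in culture, and *Per1* is also a direct target of the glucocorticoid receptor.

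Some paralogs of the loop moved in opposite directions in senescent cells, namely *Clock* and *Npas2*, *Cry1* and *Cry2*, and *Per2* against *Per1* and *Per3*. *Arntl*, *Clock*, *Per2*, *Cry1* and *Nr1d1* rose, *Npas2*, *Per1*, *Per3* and *Cry2* fell, and *Nr1d2* did not pass the test. The largest rise was in *Per2*, with a log2 fold change of 1.94 ± 0.31 (SE), and the largest fall was in *Npas2*, with -1.72 ± 0.12. Thus 5 members were higher and 4 lower (edgeR's quasi-likelihood test, adjusted p under 0.05), where 36.2% and 34.1% of all genes tested were called in these directions and 70.3% in either. The groups did not overlap for 9 of the 10 members, against 75.3% of all genes (38.4% with the senescent group higher and 37% with it lower). With such wide change in the whole transcriptome, the number of members called is not a result about the clock, and the sizes and directions of the changes are what is described here. With a limit of a 2-fold change added, 3 members were higher and 2 lower, against 17.7% and 12.3% of all genes, or 30% in either direction. The lower members were *Npas2* and *Per1*, and *Npas2* alone passed this limit when senescent replicate 3 was left out and when GC content was a term of the fit, where *Per1* had log2 fold changes of -0.99 and -0.85. The median log2 fold change was 0.30 over the members and 0.01 over all genes tested.

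Promoters of the members were read from RefSeq (build GRCm38.p6, 250 bases before to 50 after each annotated start), to show which of the elements named above lie beside genes that rose or fell. The table held 9 of the 10 members, all but *Per2*. Both strands were searched for the E-box CACGTG, its variant CACGTT, the D-box TTANGTAA that is read by DBP, TEF, HLF and NFIL3, the core AGGTCA of ROR response elements, the cAMP response element TGACGTCA and the AP-1 motif TGACTCA. No matches of different motifs shared bases in these promoters. In the lines below, matches are in capitals, the strand is that of the gene, and the *Arntl* line is a short stretch just past a start.
Arntl, chr7:113207530-113207559, plus strand, ROR core: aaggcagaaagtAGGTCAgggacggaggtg
Cry1, chr10:85185092-85185151, minus strand, variant E-box and E-box: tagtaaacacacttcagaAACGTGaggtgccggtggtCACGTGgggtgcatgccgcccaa
Cry2, chr2:92434203-92434262, minus strand, variant E-box: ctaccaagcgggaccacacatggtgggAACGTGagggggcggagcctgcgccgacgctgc
Per1, chr11:69098770-69098829, plus strand, E-box and ROR core: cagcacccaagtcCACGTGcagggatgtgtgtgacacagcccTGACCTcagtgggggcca
Per3, chr4:151044814-151044873, minus strand, D-boxes: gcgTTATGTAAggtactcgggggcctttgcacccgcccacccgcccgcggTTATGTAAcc
Nr1d1, chr11:98775378-98775437, minus strand, variant E-box: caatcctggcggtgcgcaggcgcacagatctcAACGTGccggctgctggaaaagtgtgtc
Nr1d2, chr14:18239151-18239210, minus strand, ROR core: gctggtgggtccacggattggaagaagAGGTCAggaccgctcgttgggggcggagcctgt

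The E-box, its variant and the ROR core each lay beside members that rose and a member that fell. The E-box was found in 2 of the 9 members, *Cry1*, which rose, and *Per1*, which fell. Some genes have several promoters in the table, and the E-box was in any promoter of 11.2% of the 11384 tested genes with a promoter and in 7.15% of all 32851 promoters. The variant E-box was found in 3 members, *Cry1* and *Nr1d1*, which rose, and *Cry2*, which fell, and in 6.11% of tested genes and 4.69% of promoters. In *Cry1* it began 79 and the E-box 60 bases before the start, and in *Nr1d1* it began 28 bases before it. The ROR core was found in *Arntl*, *Clock*, *Per1* and *Nr1d2*, 4 of the 9, and in 14.9% of tested genes and 16.3% of promoters. The D-box was found in *Per3* only among the 9, and in 1.92% of tested genes and 2.32% of promoters. The cAMP response element and the AP-1 motif were in none of the 9, and in 3.43% and 4.94% of tested genes and 1.79% and 5.20% of promoters. A match is a description of the letters, and no binding was measured in these samples.

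Total counts lay between 50288454 and 82229553 per library. The labels were checked on markers of senescence and division, and *Cdkn1a* and *Cdkn2a* were higher and *Mki67*, *Top2a*, *Lmnb1* and *Hmgb2* lower in senescent cells, at log2 fold changes from -5.94 to 2.33. Senescent replicate 3 stood apart. Its squared differences from senescent replicates 1 and 2 had medians of 14.01 and 19.3 times the sampling noise, against 2.12 between these replicates and 1.79 to 4.02 among the controls. Fibroblast markers were abundant in both groups, with sums from 17810 to 19900 CPM (counts scaled to a common library size by TMM) in control and 6709 to 8011 CPM in senescent cells. These markers went both ways. Of the 9, 5 were lower, among them *Col1a1* with a log2 fold change of -2.54. Another 3 were higher, among them *Dcn* with 3.50, and 1 was not called. Chondrocyte markers summed to 5359 to 5904 CPM in control and 367 to 454 CPM in senescent cells, and all 9 of the 10 that were tested fell, *Col2a1* by 4.02 on the log2 scale. Markers of other cell types were low, but their sums moved with the groups. Those of keratinocytes summed to 16.4 to 16.98 CPM in control and 9.502 to 9.93 CPM in senescent cells, those of macrophages to 5.57 to 6.03 and 9.68 to 11.6 CPM, those of endothelium to 0.777 to 0.837 and 4.37 to 5.19 CPM and those of muscle to 0.245 to 0.581 and 1.63 to 1.69 CPM. The keratinocyte sum followed *Trp63*, which fell from a mean of 13.1 to 4.17 CPM. *Cdh1* of the same list rose from 0.477 to 1.91 CPM, and *Krt5* and *Krt10* did not pass the test. Schwann cell and melanocyte markers summed to 47.4 to 50.7 and 39.1 to 42.6 CPM, most of it *S100b*, with means of 44.4 and 37.8 CPM. The part of these marker genes in the values of the clock genes was not tested. In bulk RNA, fewer cells of a type and less RNA of a gene per cell cannot be told apart.

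*Arntl* (ENSMUSG00000055116, chromosome 7 of mm10, the build of all positions here, from 113207465 to 113314122) encodes BMAL1. Its level was 24.9, 24.3 and 23.5 CPM in control replicates 1, 2 and 3, and 53.7, 53.2 and 53.3 CPM in senescent replicates 1, 2 and 3. The groups lay far apart, and the 3 senescent values were almost the same. The log2 fold change was 1.14 ± 0.06 (SE; adjusted p = 1.09e-06, edgeR), a 2.20-fold rise. The spread between replicates, as a coefficient of variation, was 2.95% in control and 0.586% in senescent cells, the smallest of any member in the senescent group. Counting error alone, at 2979, 4213 and 4495 counts, is expected to give a wider spread than 0.586%. The agreement of these 3 values is therefore not read as a trait of *Arntl*.

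*Clock* (ENSMUSG00000029238, chromosome 5 from 76212177 to 76304548), the main partner of BMAL1, had levels of 103, 93.7 and 91.3 CPM in the control and 116, 113 and 145 CPM in the senescent replicates. All senescent values were above all control values, but senescent replicate 3 was well above the other two. The log2 fold change was 0.37 ± 0.10 (adjusted p = 0.0123, edgeR), 0.26 without senescent replicate 3 and 0.18 in a fit with a GC content term, added once the data had been seen, and the call held in both. *Npas2* (ENSMUSG00000026077, chromosome 1 from 39193731 to 39363236), which can take the place of CLOCK in the dimer, went the other way. It had 5.69, 6.31 and 6.27 CPM in the control and 1.55, 2.04 and 1.91 CPM in the senescent replicates. No senescent value came near a control value, and the log2 fold change was -1.72 ± 0.12 (adjusted p = 8.77e-06, edgeR), so that control cells had 3.30 times the level of senescent cells.

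**Figure D1:**
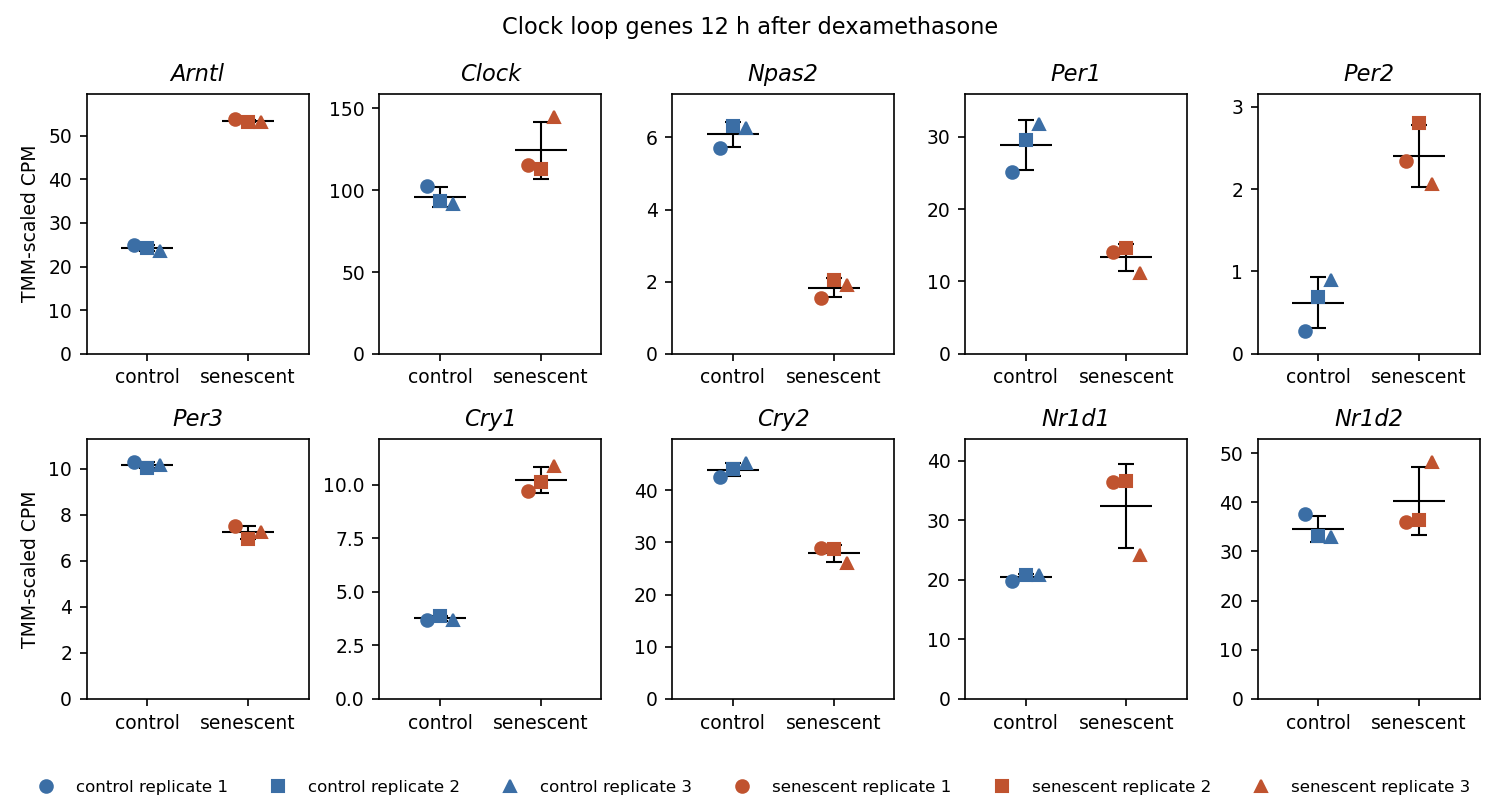
Levels of the 10 clock loop genes in TMM-scaled CPM (vertical axes, each from 0) in control and senescent cells, with a point for each replicate and a bar with whiskers for the mean ± SD of 3 samples. *Nr1d2* is the member whose groups overlap, and in *Clock*, *Nr1d1* and *Nr1d2* senescent replicate 3 stands away from the others.

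The *Period* genes encode the PER proteins of the negative limb. *Per1* (ENSMUSG00000020893, chromosome 11 from 69095217 to 69109960), the promoter of which is shown above with its E-box, was at 25.1, 29.6 and 31.8 CPM in the control and 14.1, 14.6 and 11.2 CPM in the senescent replicates. *Per1* fell by 1.11 on the log2 scale (SE 0.13, adjusted p = 0.000126, edgeR). *Per2* (ENSMUSG00000055866, chromosome 1 from 91415982 to 91459324) was the least abundant gene of the loop in control cells. Its counts were 14, 41 and 44 in the control and 130, 222 and 174 in the senescent replicates, or 0.281, 0.686 and 0.899 against 2.35, 2.80 and 2.06 CPM. Control replicate 1 lay far below the other controls, and the coefficient of variation of the control group, 50.5%, was the largest of any member. The log2 fold change of 1.94 ± 0.31 (adjusted p = 0.000804, edgeR) was 1.60 without control replicate 1. *Per3* (ENSMUSG00000028957, chromosome 4 from 151003652 to 151044665) was at 10.3, 10.0 and 10.2 CPM in the control and 7.51, 6.94 and 7.26 CPM in the senescent replicates. This was a small but even fall, with a log2 fold change of -0.49 ± 0.08 (adjusted p = 0.000652, edgeR).

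Cryptochromes are the other repressors of the BMAL1:CLOCK dimer. *Cry1* (ENSMUSG00000020038, chromosome 10 from 85131702 to 85185054) had 3.71, 3.90 and 3.68 CPM in the control and 9.71, 10.1 and 10.9 CPM in the senescent replicates. The groups were separated by a wide gap, and the log2 fold change was 1.44 ± 0.09 (adjusted p = 3.25e-06, edgeR), a 2.72-fold rise. *Cry2* (ENSMUSG00000068742, chromosome 2 from 92403646 to 92434043) had 42.6, 44.0 and 45.2 CPM in the control and 28.8, 28.8 and 26.0 CPM in the senescent replicates. All senescent values were below all control values, with a log2 fold change of -0.66 ± 0.07 (adjusted p = 6.44e-05, edgeR). Both carry the variant E-box in the windows shown above.

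The *Nr1d* genes encode the REV-ERB receptors. *Nr1d1* (ENSMUSG00000020889, chromosome 11 from 98767932 to 98775333) was at 19.9, 20.8 and 20.8 CPM in the control and 36.4, 36.6 and 24.3 CPM in the senescent replicates. Senescent replicates 1 and 2 were high and replicate 3 was close to the controls. The log2 fold change was 0.66 ± 0.15 (adjusted p = 0.00529, edgeR), 0.84 without senescent replicate 3 and 0.85 with the GC term. *Nr1d2* (ENSMUSG00000021775, chromosome 14 from 18204054 to 18239127) was at 37.7, 33.2 and 33.0 CPM in the control and 36.0, 36.5 and 48.2 CPM in the senescent replicates. The highest control value exceeded 2 of the senescent values, and the log2 fold change of 0.22 ± 0.12 did not pass the threshold (adjusted p = 0.148, edgeR). Without senescent replicate 3 it was 0.07, and over the 14 other settings its adjusted p lay between 0.0623 and 0.324 (edgeR or DESeq2).

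**Figure D2:**
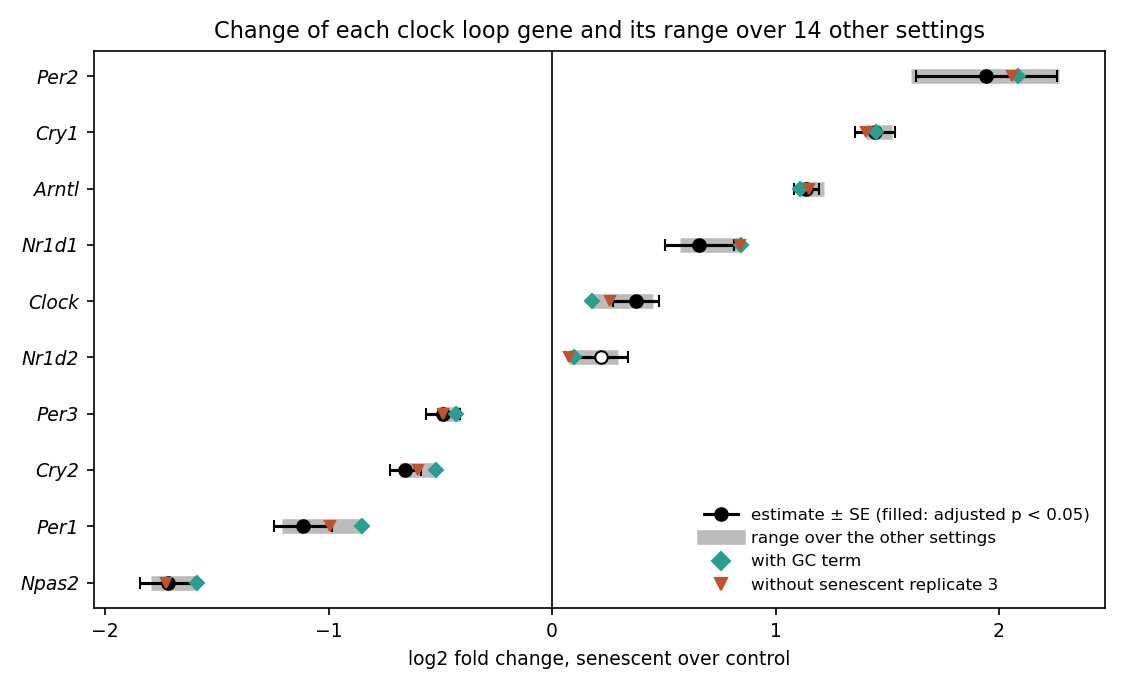
Log2 fold change of each clock loop gene, senescent over control (horizontal axis), with the estimate ± SE as a circle with whiskers, filled where the adjusted p was under 0.05, and the range over 14 other settings as a grey bar. The 5 genes that rose and the 4 that fell keep their side of 0 in each of these settings, and of these 9 *Clock* moves nearest to 0, to 0.18 with the GC term (diamond).

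Some members share genome sequence with other genes. *Nr1d1* overlaps *Thra*, the thyroid hormone receptor gene on the opposite strand, by 263 exonic bases in the GENCODE annotation of GRCm38. *Thra* fell from 73.8 ± 4.44 to 50.3 ± 7.19 CPM (SD, n = 3 per group), the direction opposite to that of *Nr1d1*. *Per3* lies within the span of *Camta1* on the same strand without shared exonic bases, and *Camta1* had a log2 fold change of -0.39. *Cry2* shares 295 exonic bases with *D930015M05Rik* on the opposite strand, which had at most 12 counts in any library. *Arntl* shares 33 exonic bases with the antisense gene *Gm45355*, which was not analysed here. The library kit keeps the strand, but the strand setting of the counting is not given in the sources used here, so reads from the overlaps of *Nr1d1*, *Cry2* and *Arntl* are uncertain.

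The deviation of senescent replicate 3 went with GC content. Over the 10 members, the log2 of its CPM over the mean of the other senescent libraries had a Pearson r of -0.871 with the GC content of the transcripts, and over the 17425 tested genes with a GC value r was -0.722. Senescent replicates 1 and 2 deviated the other way, with r of 0.565 and 0.857 over the members, and the control libraries had r between -0.487 and 0.609. These points share their libraries and are not independent, so no p is given. *Nr1d2* and *Clock*, the members with the lowest GC content (44.0% and 41.5%), were higher in this library than in the other two by 0.41 and 0.34 on the log2 scale. *Nr1d1* (56.6%), *Per1* (58.9%) and *Per2* (54.5%) gave -0.59, -0.36 and -0.32. *Arntl*, with 48.3% GC, deviated by -0.01. With the GC term, the log2 fold changes were 1.11 for *Arntl*, 1.45 for *Cry1*, 2.09 for *Per2*, -0.85 for *Per1*, -0.52 for *Cry2*, -0.43 for *Per3* and -1.59 for *Npas2*, and these genes, *Clock* and *Nr1d1* kept an adjusted p under 0.05 (edgeR). The GC term was fitted on deviations from the mean of all 6 libraries. It therefore also takes out any difference between the groups that goes with GC content, and not only the deviation of senescent replicate 3. Whether RNA quality or the preparation of this replicate had a part in these values was not tested.

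**Figure D3:**
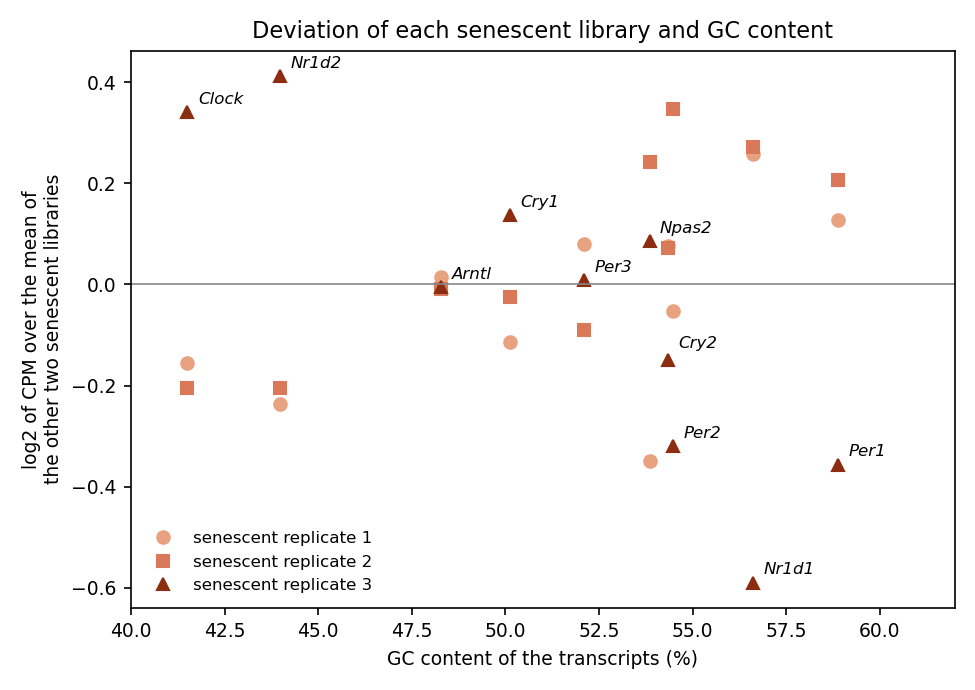
Log2 of the CPM of each clock loop gene in a senescent library over the mean of the other two senescent libraries (vertical axis) against the GC content of its transcripts in percent (horizontal axis), with a symbol for each of the 3 libraries. In replicate 3 (labelled points) *Clock* and *Nr1d2* lie above 0 and *Per1*, *Per2* and *Nr1d1* below it.

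Ratios of paired genes within a library do not depend on how libraries are scaled, and were used to compare the members with each other. In 9 of the 10 pairs set for comparison the 3 control ratios and the 3 senescent ratios did not overlap, and the exact two-sided permutation test gave its smallest possible p of 0.1 (adjusted over the 10 pairs, 0.111), so that no pair can pass 0.05 with these sample sizes. Of all single genes tested, 75.3% did not overlap, and no share was computed for ratios of other genes. The number of separate pairs is therefore not a result about the clock. The ratio of *Cry1* to *Cry2*, in counts per kilobase, was 0.182, 0.186 and 0.171 in the control and 0.706, 0.737 and 0.880 in the senescent replicates, 4.29-fold higher. The ratio of *Npas2* to *Clock* was 0.0864, 0.105 and 0.107 in the control and 0.0210, 0.0283 and 0.0206 in the senescent replicates, a log2 difference of -2.11 ± 0.18 (SE). *Per1* exceeded *Per2* by 93.0, 44.8 and 36.8 times in the control and by 6.26, 5.43 and 5.67 times in the senescent replicates. The ratio of *Per3* to *Per2* changed by -2.59 ± 0.54 on the log2 scale. The controls were widely spread in both of the last ratios, since *Per2* had few counts there.

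The balance of *Arntl* with its partner and with its repressors shifted as well. *Arntl* over *Clock* was 0.624, 0.669 and 0.663 in the control and 1.20, 1.21 and 0.948 in the senescent replicates. Relative to *Nr1d1*, *Arntl* was higher by 0.50 ± 0.20 on the log2 scale (0.31 without senescent replicate 3), and relative to *Nr1d2* by 0.93 ± 0.15. Relative to *Cry1* it was lower by a log2 difference of -0.31 ± 0.06, and relative to *Per2* by -0.96 ± 0.55, where the gap between the closest control and senescent libraries was 0.02. Without control replicate 1, whose *Per2* count was lowest, the difference was -0.44. The ratio of *Nr1d1* to *Nr1d2* overlapped between the groups (exact permutation p = 0.4), at 0.858, 1.02 and 1.03 in the control and 1.64, 1.63 and 0.818 in the senescent replicates. Its log2 difference was 0.43 with all libraries, 0.76 without senescent replicate 3, the replicate whose ratio lay below those of the controls, and 0.26 and 0.27 without senescent replicates 1 and 2.

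**Figure D4:**
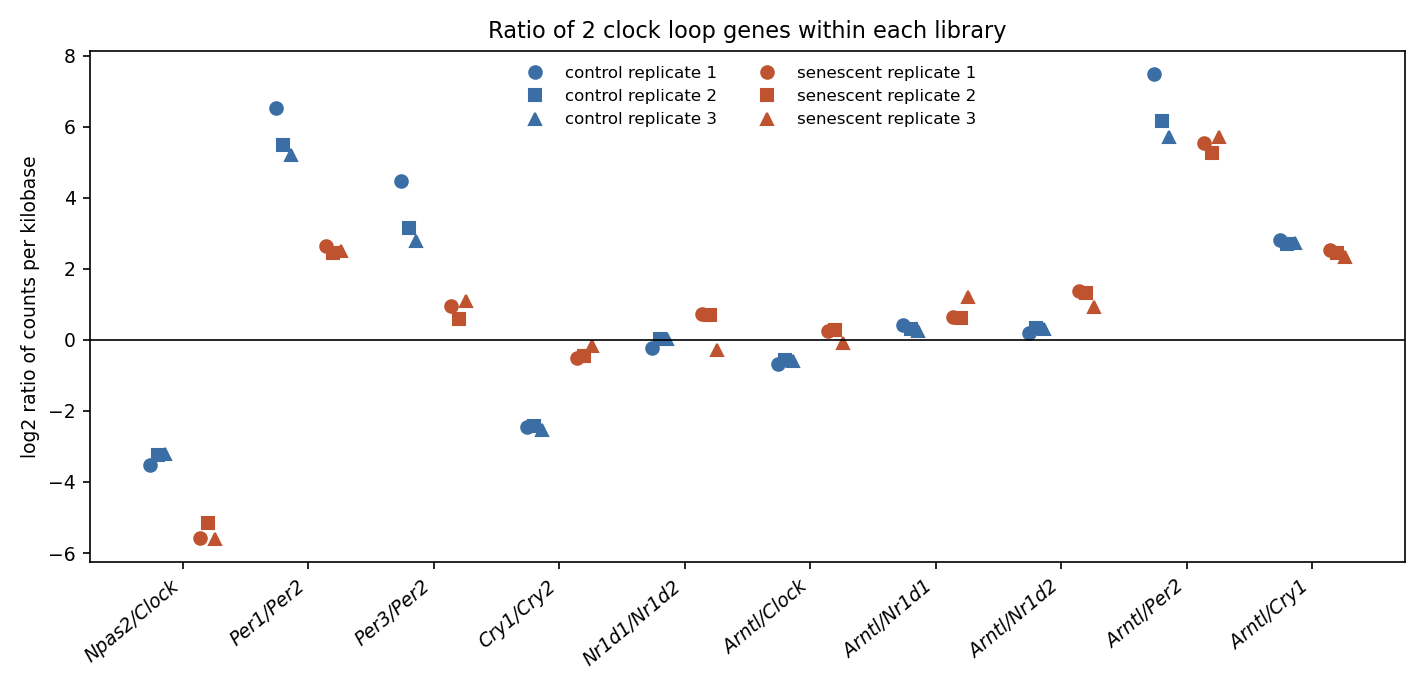
Log2 ratio of counts per kilobase between 2 clock loop genes within each library (vertical axis) for 10 pairs (horizontal axis), with a point for each of the 6 libraries. The control and senescent points are separate for each pair but *Nr1d1*/*Nr1d2*, and the widest shift of the log2 ratio is -3.21, in *Per1*/*Per2*.

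Levels of different genes were compared as RPKM, the CPM per kilobase of the gene length in the table. In control cells, *Clock* was the most abundant member at 12.8 ± 0.812 RPKM (SD, n = 3), followed by *Arntl* at 8.35 ± 0.246. *Cry2*, *Nr1d2* and *Nr1d1* followed at 6.95, 6.92 and 6.67 RPKM, and neighbours in this order overlapped. *Per1* came next at 5.12 RPKM, then *Npas2* and *Cry1*, which overlapped, at 1.27 and 1.25, then *Per3* at 1.06 and *Per2* at 0.106. In senescent cells, *Arntl* at 18.4 ± 0.108 RPKM and *Clock* at 16.6 ± 2.36 RPKM overlapped at the top. *Nr1d1* and *Nr1d2* followed at 10.5 and 8.05 RPKM and also overlapped. *Cry2*, *Cry1*, *Per1* and *Per3* came after them, in this order and without overlap between neighbours, at 4.41, 3.40, 2.37 and 0.753 RPKM. *Per2* and *Npas2* were lowest, at 0.410 and 0.383 RPKM, and overlapped.

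Summed over paralogs, the families moved differently. The *Cry* genes together held 7.97 to 8.37 RPKM in control and 7.73 to 7.91 RPKM in senescent cells, so their sum was nearly even while the share of *Cry1* in it went from 15.2% ± 0.571 to 43.5% ± 2.89 (SD, n = 3 per group). The *Per* genes together held 6.29 ± 0.655 RPKM in control and 3.53 ± 0.375 RPKM in senescent cells, and *Per2* made up 1.64% ± 0.707 and 11.6% ± 0.894 of these sums. The *Nr1d* genes together held 13.6 ± 0.353 and 18.6 ± 0.920 RPKM, and this sum was steadier between senescent replicates than either gene. In senescent replicate 3, whose deviation went with GC content, *Nr1d1* lay off the other senescent libraries by -0.59 and *Nr1d2* by 0.41 on the log2 scale. A balance between these genes was not tested. *Clock* made up 91.0% ± 0.951 of the sum of *Clock* and *Npas2* in control and 97.7% ± 0.413 in senescent cells. The sum of the activators *Arntl*, *Clock* and *Npas2* was 22.5 ± 0.972 RPKM in control and 35.4 ± 2.33 RPKM in senescent cells.

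The genes around the loop were examined with 4 lists, of output factors and the auxiliary loop, of kinases and phosphatases, of ubiquitin ligases and proteases, and of chromatin cofactors and partners of clock proteins. Of the 72 genes, all of which were tested, 28 were higher and 26 lower in senescent cells (adjusted p under 0.05, edgeR), with a median log2 fold change of 0.05. At 75.0% called, the lists as a whole were close to the 70.3% of all genes. Over all genes tested, 36.2% were higher and 34.1% lower, so the counts called in each list below are a description.

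Of 17 output and auxiliary loop genes, 9 rose and 6 fell, with a median of 0.31. *Bhlhe40* and *Bhlhe41*, whose products DEC1 and DEC2 repress E-box genes, rose from 44.0 ± 1.87 to 95.1 ± 0.946 CPM and from 2.57 ± 0.127 to 6.14 ± 0.0716 CPM (SD, n = 3 per group). *Usp2*, a clock-controlled ubiquitin protease, had a log2 fold change of 1.39. *Wee1*, a kinase that holds back mitosis and is also a clock output, fell by 1.49, the D-box activator *Tef* by 0.37 and *Tspan4* by 0.75 on the log2 scale. The next genes were named after their values had been seen. *Rora* and *Rorb*, which encode activators that compete with REV-ERB at ROR response elements, rose by log2 fold changes of 0.91 and 1.95. *Dbp*, a D-box activator driven from E-boxes, changed from 5.42 ± 0.666 to 3.69 ± 0.418 CPM, and its opponent *Nfil3* from 41.6 ± 2.54 to 32.2 ± 2.42 CPM, and both passed the test as lower. *Hlf*, whose product also reads the D-box, went the other way, with a log2 fold change of 3.05. It had few counts, 4, 1 and 1 in the control and 19, 26 and 27 in the senescent replicates.

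Of 16 kinases and phosphatases, 8 rose and 3 fell, with a median of 0.20. *Prkaa2*, which encodes a catalytic subunit of AMPK, rose from 0.820 ± 0.0179 to 8.73 ± 1.31 CPM. *Csnk2a2*, a catalytic subunit of casein kinase 2, and the JNK gene *Mapk9* each had a log2 fold change of 0.50. *Csnk1d*, which encodes the casein kinase 1δ that phosphorylates PER proteins, fell by 0.33, and the phosphatase subunits *Ppp1ca* and *Ppp1cc* by 0.73 and 0.37. Of 14 ubiquitin ligase and protease genes, 7 rose and 2 fell, with a median of 0.17. *Fbxw7*, *Fbxw11* (a β-TrCP that targets PER proteins) and *Cul4a* rose by log2 fold changes of 0.68, 0.53 and 0.46, and *Ddb1* and *Cul4b* fell by 0.25 and 0.26.

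Among 25 chromatin cofactors and partners, 15 fell and 4 rose, with a median log2 fold change of -0.46. *Timeless*, whose product acts at replication forks as well as with CRY and PER, had the largest fall, from 32.1 ± 3.33 to 2.92 ± 0.485 CPM. The histone methyltransferases *Ezh2* and *Suv39h1* fell by 2.09 and 1.39 on the log2 scale. Both, like *Timeless*, are known to be high in dividing cells, and *Mki67* fell from 589 ± 17.3 to 9.60 ± 1.49 CPM. The part of the arrest of division in these values was not tested. *Nrip1*, *Kmt2a* and *Wdr5* rose by 0.82, 0.33 and 0.25. *Hdac3* and *Ncor1*, the corepressors of REV-ERB, fell by 0.47 and 0.26, and were named after their values had been seen.

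Dexamethasone acts through the glucocorticoid receptor, and *Per1* is one of its targets. Of 15 genes of the receptor and its targets, 9 rose and 5 fell, with a median of 0.73, where 36.2% of all genes tested rose and 34.1% fell. The receptor gene *Nr3c1* rose from 144 ± 7.65 to 204 ± 22.6 CPM. *Dusp1*, *Errfi1* and *Sgk1* rose by log2 fold changes of 1.96, 1.76 and 0.99. *Fkbp5*, which encodes a co-chaperone of the receptor, *Ddit4* and *Zbtb16* fell by 1.64, 1.50 and 1.49, in the direction of *Per1*. The genes of this list, like all genes tested, went both ways, and the part of the response to dexamethasone in the level of *Per1* was not tested.

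**Figure D5:**
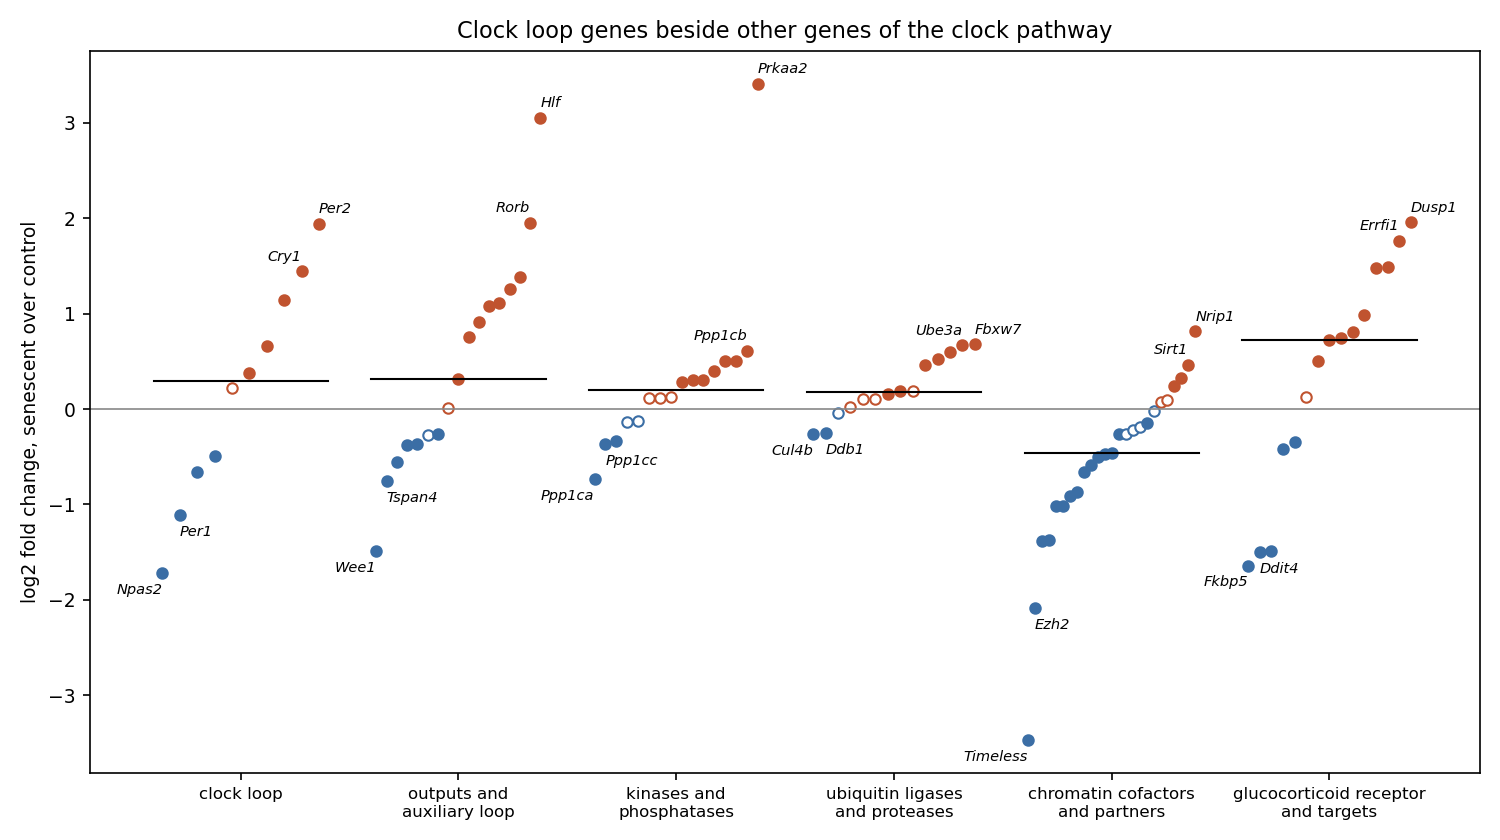
Log2 fold change, senescent over control (vertical axis), of each gene in the clock loop, in 4 lists of other clock genes and in the glucocorticoid list (horizontal axis), filled where the adjusted p was under 0.05, with a line for the median of each list. The chromatin cofactors and partners have a median below 0, at -0.46, and the other lists have medians between 0.17 and 0.73.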

How the data were processed

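RNA-seq of 3 control and 3 senescent samples was analysed, with groups and replicate numbers taken from the sample labels. The deposited values are raw counts per gene with gene lengths, which the authors made with the MAPRSeq pipeline (STAR alignment to mm10, Subread counting). How multi-mapping reads were handled is not given in the sources used here. From these counts, filterByExpr kept 17589 genes, TMM factors scaled the libraries, and senescent was tested against control by the quasi-likelihood method of edgeR in its robust form (edgeR 4.0.16, R 4.3.3), two-sided, with Benjamini-Hochberg adjustment over all genes tested. CPM and RPKM use the TMM factors (0.968 to 1.03) and the deposited lengths. Totals of 50288454 to 82229553 counts put 3 counts, the limit for a count of 0, at 0.0355 to 0.0613 CPM, for counting error alone.

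The members and lists were chosen with earlier results of these data known, and the lists were written from general knowledge. Named were all members, genes that overlap them, up to 3 genes in each direction of a list by smallest p, the genes of the label check and some of the main cell markers. *Nr3c1*, the other cell markers and the genes marked above fall outside this rule and were named with their values known. Alternatives were RLE scaling, library size alone, no filter beyond 1 count, at least 10 counts in every library, DESeq2 1.42.0, edgeR's exact test, a replicate block, a limit of 2-fold, each library left out and, chosen after seeing the data, a GC term (GC content from GENCODE transcripts, known for 99.1% of genes tested). On simulated data with 200 changed genes among 17394 tested, 197 were recovered by the main test beside 6 false calls. The simulation gave every gene the same spread between replicates and had no GC trend or outlying library. It therefore does not show the error rate in these data, where 12365 of 17589 genes were called. The labels do not say whether replicates are separate cultures, so p-values measure the spread between these samples, which may be technical.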

Additional observations from a re-analysis of the deposited data

How the results depend on the processing

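Each of the 10 clock loop genes kept its direction and its side of the threshold in all 14 other settings. The direction of all 10 ratios held when each library was left out. Leaving out gene length, or taking differences within replicate numbers, cannot change these mean differences by arithmetic, so neither is a check of the ratios. With the 2-fold limit, 3 of the 10 clock loop genes were higher and 2 lower. Of the 72 listed clock regulators and outputs, 7 were higher and 7 lower, in place of 28 and 26. Over all genes tested, 17.7% were higher and 12.3% lower at this limit. *Clock* came closest to the threshold, with an adjusted p of 0.0498 (edgeR) without control replicate 3, and the few counts of *Per2* in control cells let its log2 fold change range from 1.60 to 2.27 as single libraries were left out. Deviations of same-numbered libraries from their group means had correlations of -0.145, 0.135 and -0.120. Those of differently numbered libraries lay between -0.214 and 0.261. With means of only 3 libraries, these values cannot show whether the replicate numbers pair the samples. With the replicate block, 11624 in place of 12365 genes were called, and *Arntl* had a log2 fold change of 1.14. Depth limits *Per2* most, with 14 counts in control replicate 1.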

Other observations

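Motifs were also counted over all tested genes with a promoter in the RefSeq table, as a description without a test. In senescent cells 38.0% of these 11384 genes were higher and 35.0% were lower (adjusted p under 0.05, edgeR), with a median log2 fold change of 0.02. The 562 genes with an AP-1 motif in the promoter, none of them a clock loop gene, were higher in 49.1% and lower in 28.3%, with a median of 0.27. For the 1275 genes with an E-box these values were 41.2%, 33.2% and 0.07, and for the 219 genes with a D-box 40.6%, 34.7% and 0.01.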
